A study of Mus musculus with 4 samples.

Results

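Chemokine genes expressed by mouse lung cancer lines were described across 4 cultured lines. The members were 10 genes chosen by symbol: Ccl2, Ccl9, Ccl20, Cxcl1, Cxcl2, Cxcl5, Cxcl10, Cxcl15, Cxcl16 and Cx3cl1. Each symbol matched a single row, so 10 of the 34147 distinct symbols in the table were used. The metastatic group held 238N1 and 482N1, both derived from a lymph node, and the non-metastatic group held 368T1 and 394T4, both derived from the lung. All 4 came from 129S1/SvImJ mice with p53flox/flox alleles, whose tumours were started with lentiviral Cre, a recombinase that deletes floxed p53 in the cells it enters. The labels describe cultured cancer cells and also call the samples tumours; they are treated here as cultured lines. Each line was sequenced once, so each value is 1 library. Status and site run together in these lines and cannot be told apart.

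Chemokines are small secreted or membrane-bound proteins that steer leukocytes through G protein-coupled receptors. They are grouped by the spacing of their first cysteines into CC, CXC and CX3C families. In lung tumours, cancer cells are 1 of several known sources, beside macrophages, fibroblasts and endothelium, and their chemokines are known for drawing in monocytes, neutrophils and T cells. Many chemokine genes are switched on by the transcription factor NF-kB, and some by interferons.

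The levels are FPKM, fragment counts normalised for transcript length and library size, so they can be set side by side between genes. The FPKM of all rows summed to between 924354 and 2279794 a library, of which 1 row, AC113316.1, held 18.7% to 62.4%. Over protein-coding genes the sums lay between 413128 and 492076. Read totals are unknown. The steps between the smallest values put 238N1 as the deepest library, with the others at 0.550 to 0.608 of its depth. The lines carried epithelial keratins, with Krt18 between 890.1 and 1450 FPKM. Of 13 leukocyte markers, 11 stayed under 1 FPKM in every line and 7 were listed at 0 throughout, among them Ptprc (CD45), Coro1a and Itgam. Of 6 endothelial markers none reached 1 FPKM in any line. Of 9 fibroblast markers, 5 reached 1 FPKM in 482N1, where the list summed to 41.0 FPKM, against 0.678 FPKM in 238N1, 2.47 FPKM in 368T1 and 4.30 FPKM in 394T4. Dcn, Lum and Col1a2 from that list were listed at 0 in all lines. Marker values listed at 0 may include failed estimates.

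The 10 chemokines together made up 51.8 FPKM in 238N1, 41.1 FPKM in 482N1, 86.4 FPKM in 368T1 and 662.0 FPKM in 394T4. The leading gene differed between lines. Cx3cl1 held 48.9% of the sum in 238N1 and 51.7% in 482N1. Cxcl16 held 48.4% in 368T1, and Ccl9 held 89.0% in 394T4. Without Ccl9 the sum in 394T4 was 72.8 FPKM, below the 85.1 FPKM of 368T1 counted in the same way. The second gene was Cxcl16 in 238N1, Ccl2 in 482N1, and Cx3cl1 in 368T1 and 394T4. Of the 10 genes, 7 reached 1 FPKM in 238N1 and in 368T1, 5 in 394T4 and 4 in 482N1. With the other 30 chemokine ligands in the table counted, the 10 genes held 77.0% to 97.8% of the FPKM of all 40 ligands in the 4 lines. The share was lowest in 368T1, where the other 30 summed to 25.9 FPKM and Ppbp alone stood at 16.8 FPKM.

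**Figure D1:**
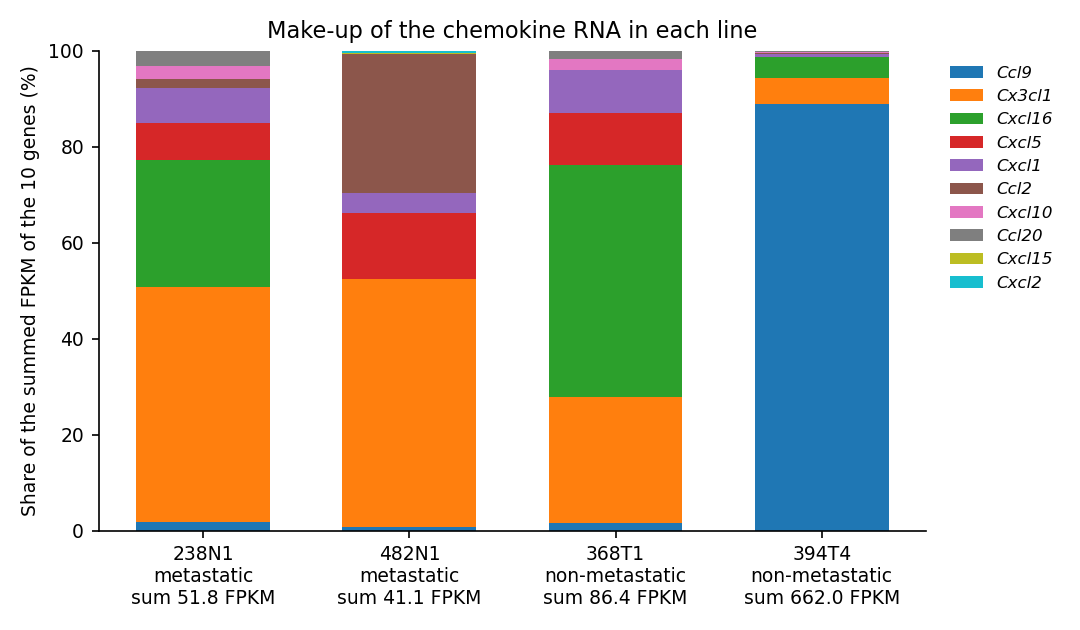
Share of the summed FPKM of the 10 chemokine genes held by each gene (vertical axis, percent), with 1 bar for each line and the sum under it. Cx3cl1 and Cxcl16 fill most of the bars of 238N1 and 368T1, Cx3cl1 and Ccl2 most of 482N1, and Ccl9 holds 89.0% in 394T4.

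**Figure D2:**
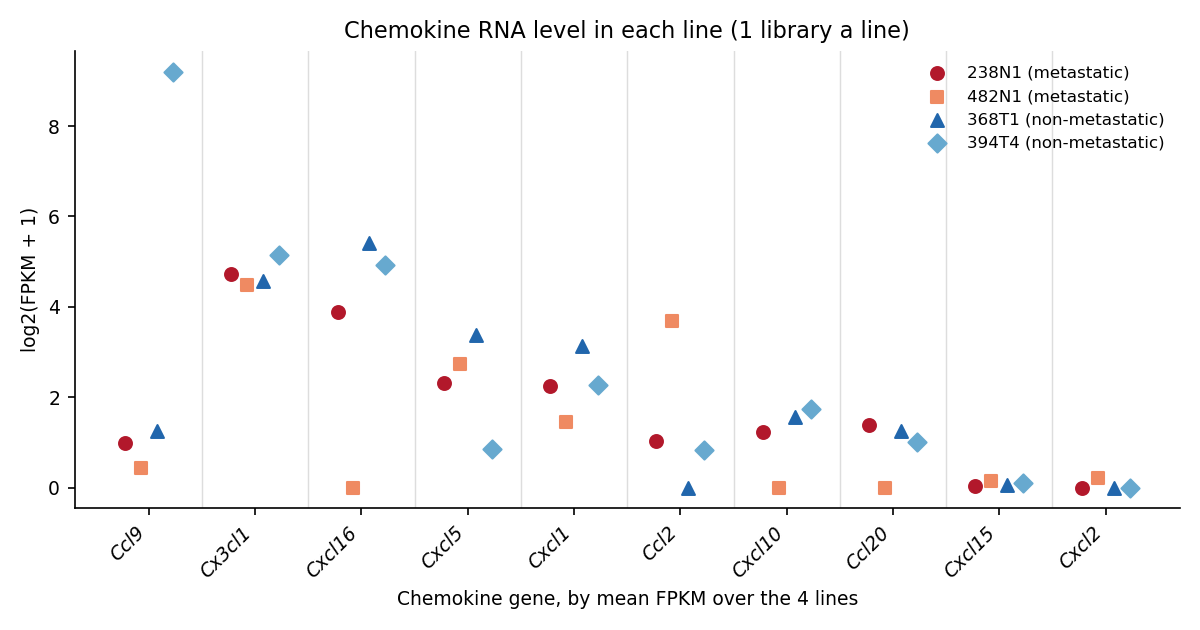
Level of each chemokine gene as log2(FPKM + 1) (vertical axis) in each of the 4 lines, 1 point a library, with genes ordered by their mean FPKM. Cx3cl1 shows the closest points among the abundant genes, while Ccl9 stands apart in 394T4, Ccl2 in 482N1, and Cxcl16 is at 0 in 482N1.

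Of the 10 genes, 8 had a mean of at least 1 FPKM over the 4 lines and entered the test, limma on log2(FPKM + 1) values of 12425 genes, with the variance allowed to follow the level. Cxcl2 and Cxcl15 did not pass that filter. Ccl9 and Ccl2 passed it through the level of a single line. None of the 8 tested genes differed between metastatic and non-metastatic lines in limma's test (Benjamini-Hochberg adjusted p from 0.357 for Cxcl16 to 0.821 for Cxcl5), and none had an unadjusted p under 0.05, beside 8.68% of all genes lower and 5.7% higher at that threshold. These shares turned round, to 468 lower and 1500 higher genes, when libraries were scaled by their protein-coding sum. Over all genes tested, 20 genes, or 0.161%, were called: 6 (0.0483%) were lower and 14 (0.113%) higher in the metastatic lines. With any 1 library left out, no gene was called. These p-values rest on the spread between the 2 lines of a group, which limma adjusts toward the spread over all genes tested. The labels do not say how the lines relate to animals, so no spread between animals can be read from them. An exact permutation test of 2 lines against 2 could not pass 0.05 either.

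Of the membrane-anchored chemokines, Cx3cl1 was abundant and even over the lines and Cxcl16 was not. Cx3cl1 (ENSMUSG00000031778, mm9 chromosome 8, 97295909 to 97306323, plus strand) encodes fractalkine, the ligand of Cx3cr1 on monocytes and lymphocytes. It stood at 25.3 FPKM in 238N1, 21.2 FPKM in 482N1, 22.7 FPKM in 368T1 and 34.6 FPKM in 394T4. The highest line was 1.63 times the lowest, and the groups overlapped. The metastatic mean was 23.3 ± 2.88 FPKM and the non-metastatic mean 28.6 ± 8.41 FPKM (± SD, n = 2 lines each). The metastatic minus the non-metastatic mean of log2(FPKM + 1) was -0.26 (SE 0.27, 95% interval -0.99 to 0.46; limma adjusted p = 0.598). It turned to 0.03 without 394T4. With 1 library a line, the order of the 3 lower lines, which lay within 1.19 times of each other, cannot be tested.

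Cxcl16 (ENSMUSG00000018920, mm9 chromosome 11, 70267485 to 70273486, minus strand) encodes the other membrane-anchored chemokine, the ligand of Cxcr6 on T cells and natural killer T cells. It stood at 13.7 FPKM in 238N1, was listed at 0 in 482N1, and stood at 41.8 FPKM in 368T1 and 29.4 FPKM in 394T4. The groups did not overlap, with the metastatic lines lower. The difference was -3.23 on the log2(FPKM + 1) scale (SE 1.36, 95% interval -6.92 to 0.45; limma adjusted p = 0.357). Without 482N1 it was -1.29 (adjusted p = 0.524). Since an exact 0 in this table may reflect an estimate that failed, fold changes against it are left out. Cxcl16 overlaps the opposite-strand gene Zmynd15 by 552 bp, and Zmynd15 was also listed at 0 in 482N1, with 0.518 FPKM in 238N1, 1.96 FPKM in 368T1 and 0.663 FPKM in 394T4. The labels do not state that strand was used in counting, so reads from this overlap cannot be assigned to 1 of the genes. Of the 8 tested chemokines, Cxcl16, Cxcl10 and Ccl20 were listed at 0 in 482N1 and above 0 in the other 3 lines, a pattern found in 1.27% of all genes tested and picked out here after the values were seen.

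Among the CC chemokines, Ccl9 (ENSMUSG00000019122, mm9 chromosome 11, 83386421 to 83392138, minus strand) encodes a rodent chemokine that acts on myeloid cells through Ccr1. It stood at 0.981 FPKM in 238N1, 0.342 FPKM in 482N1, 1.37 FPKM in 368T1 and 589.2 FPKM in 394T4. The high line was 431 times the next, and Ccl9 ranked 140 of 34147 symbols there. Its difference between groups came from that line, at -4.52 on the log2(FPKM + 1) scale with a 95% interval from -11.99 to 2.95 (SE 2.75; limma adjusted p = 0.438). Without 394T4 its mean over the other lines fell under the filter and it was not tested, and without 368T1 the difference was -8.50. Myeloid cells also make Ccl9. The 13 leukocyte markers summed to 2.75 FPKM in 394T4 and to 2.66 to 5.07 FPKM in the other lines. In 394T4, Cd68 stood at 1.78 FPKM, S100a8 at 0.685 FPKM and Csf1r at 0.232 FPKM. Ptprc, Itgam and Emr1 were among the 7 markers listed at 0 in every line, which may include failed estimates. The part of such cells in the Ccl9 level was not tested. The neighbouring chemokine genes did not share the level. Ccl6, the gene 9246 bp away and the closest relative of Ccl9 among the ligands by coding sequence (66.5% identity), was listed at 0 in 394T4 and 482N1, with 0.253 FPKM in 238N1 and 0.213 FPKM in 368T1. Ccl5, on the other side, was highest in 394T4 at 1.45 FPKM, with 0.378 FPKM in 368T1 and 0 in the metastatic lines. Ccl3 and Ccl4 were listed at 0 in every line.

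Ccl2 (ENSMUSG00000035385, mm9 chromosome 11, 81849073 to 81850955, plus strand) encodes the main attractant of monocytes that carry Ccr2. It stood at 1.06 FPKM in 238N1, 11.9 FPKM in 482N1, 0 in 368T1 and 0.788 FPKM in 394T4. Both metastatic lines lay above both non-metastatic lines, but 238N1 and 394T4 were close and 482N1 was 11.2 times the next line. The difference was 1.95 on the log2(FPKM + 1) scale (SE 0.998, 95% interval -0.76 to 4.66; limma adjusted p = 0.393), and it was 3.27 without 238N1. Without 482N1 the gene fell under the filter. Ccl7, a related monocyte attractant 8259 bp downstream, stood at 3.17 FPKM in 482N1 and was listed at 0 in the other 3 lines. Ccl11, Ccl12 and Ccl1, the next chemokine genes of that cluster, were at 0 throughout, and Ccl8 stayed under 0.3 FPKM. The line with the high Ccl2, 482N1, also held the highest values of some fibroblast markers. Col1a1 stood at 16.3 FPKM and Acta2 at 16.3 FPKM there, against at most 0.712 FPKM and 3.59 FPKM in the others. Of the 9 markers, 5 reached 1 FPKM in 482N1, while Dcn, Lum and Col1a2 were listed at 0 and Pdgfra stood at 0.222 FPKM. The part of these markers in the Ccl2 level was not tested, and more cells of a type cannot be told apart from more RNA per cell in bulk libraries. Ccl2 lies entirely within the span of an opposite-strand model, Gm17268, which was listed at 0 in all lines.

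Ccl20 (ENSMUSG00000026166, mm9 chromosome 1, 83113341 to 83115742, plus strand) encodes the ligand of Ccr6 on dendritic cells and lymphocytes. It was low, with 1.63 FPKM in 238N1, 0 in 482N1, 1.38 FPKM in 368T1 and 0.999 FPKM in 394T4. The 3 lines with a value differed by less than a factor of 2, and the groups overlapped. The difference of -0.43 (SE 0.59, 95% interval -2.04 to 1.18; limma adjusted p = 0.701) turned to 0.27 without 482N1.

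CXC chemokines known for drawing neutrophils through Cxcr2 lie in a cluster on chromosome 5, whose expressed genes had their highest level in 368T1. The 7 genes of this cluster span 146.6 kb from Cxcl5 to Cxcl2, in the order Cxcl5, Ppbp, Pf4, Cxcl3, Cxcl15, Cxcl1 and Cxcl2. Summed over the 7 genes, the cluster stood at 37.4 FPKM in 368T1, 12.7 FPKM in 238N1, 12.7 FPKM in 394T4 and 10.03 FPKM in 482N1. Of the 7 genes, 5 were highest in 368T1: the 4 that reached 0.5 FPKM in any line, and Pf4, at only 0.164 FPKM. The share of all genes that were highest in 368T1 was not counted, so this count has no background beside it. The protein-coding sum was also largest in 368T1, at 492076 FPKM. The cluster was picked out after the values were seen.

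Cxcl1 (ENSMUSG00000029380, mm9 chromosome 5, 91320267 to 91322141, plus strand), a strong neutrophil attractant, stood at 3.77 FPKM in 238N1, 1.73 FPKM in 482N1, 7.82 FPKM in 368T1 and 3.84 FPKM in 394T4. The groups did not overlap, with the metastatic lines lower, although 238N1 and 394T4 were nearly equal. The metastatic mean was 2.75 ± 1.44 FPKM and the non-metastatic mean 5.83 ± 2.81 FPKM (± SD, n = 2 lines each). The difference was -0.86 (SE 0.47, 95% interval -2.12 to 0.41; limma adjusted p = 0.407) on the log2(FPKM + 1) scale, and it ranged from -1.29 without 394T4 to -0.42 without 368T1. The groups overlapped when libraries were scaled by their protein-coding sum, with 4.05 FPKM in 238N1 above 3.62 FPKM in 394T4.

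Cxcl5 (ENSMUSG00000029371, mm9 chromosome 5, 91188325 to 91190651, plus strand), an epithelial neutrophil attractant, stood at 3.95 FPKM in 238N1, 5.61 FPKM in 482N1, 9.36 FPKM in 368T1 and 0.807 FPKM in 394T4. The non-metastatic lines held both the highest and the lowest value, 11.6 times apart, with the metastatic lines between them. The group means were 4.78 ± 1.18 and 5.08 ± 6.05 FPKM (metastatic and non-metastatic, mean ± SD, n = 2 lines each). The difference on the log2(FPKM + 1) scale was 0.40, opposite in sign to that of the FPKM means (SE 0.91, 95% interval -2.06 to 2.87; limma adjusted p = 0.821). It was -0.86 without 394T4.

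Cxcl2 and Cxcl15 were near 0. Cxcl2 (ENSMUSG00000058427, mm9 chromosome 5, 91332897 to 91334935, plus strand), also a ligand of Cxcr2, was listed at 0 in 3 lines and stood at 0.168 FPKM in 482N1. Its coding sequence is 89.8% identical to that of Cxcl3, and their transcripts share an unbroken run of 110 bp, longer than the 100 bp reads. Reads from that run cannot be assigned to either gene, so how much of the signal of Cxcl2 and Cxcl3 was counted to each is uncertain. Cxcl3 stood at 2.37 FPKM in 238N1, 0.765 FPKM in 482N1, 3.16 FPKM in 368T1 and 0.985 FPKM in 394T4. Cxcl1 and Cxcl2 share 75.9% of their coding bases and no run above 23 bp. Cxcl15 (ENSMUSG00000029375, mm9 chromosome 5, 91223560 to 91232093, plus strand), known in mouse as lungkine and made by lung airway epithelium, stood at 0.0211 FPKM in 238N1, 0.109 FPKM in 482N1, 0.0347 FPKM in 368T1 and 0.0766 FPKM in 394T4. Scaled by the worth of 1 fragment in each library, these levels stood in the ratio 1 to 3 to 1 to 2, so they may rest on as few as 1 to 3 fragments a library and no order is read from them.

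Ppbp, which encodes the precursor of another Cxcr2 ligand and lies 6893 bp from Cxcl5, was the most abundant gene of the cluster in 368T1 and in 394T4. It stood at 2.46 FPKM in 238N1, 1.65 FPKM in 482N1, 16.8 FPKM in 368T1 and 7.02 FPKM in 394T4. The groups did not overlap, with the metastatic lines lower, and the difference of -1.98 (SE 0.47) did not pass over all genes (limma adjusted p = 0.332).

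**Figure D3:**
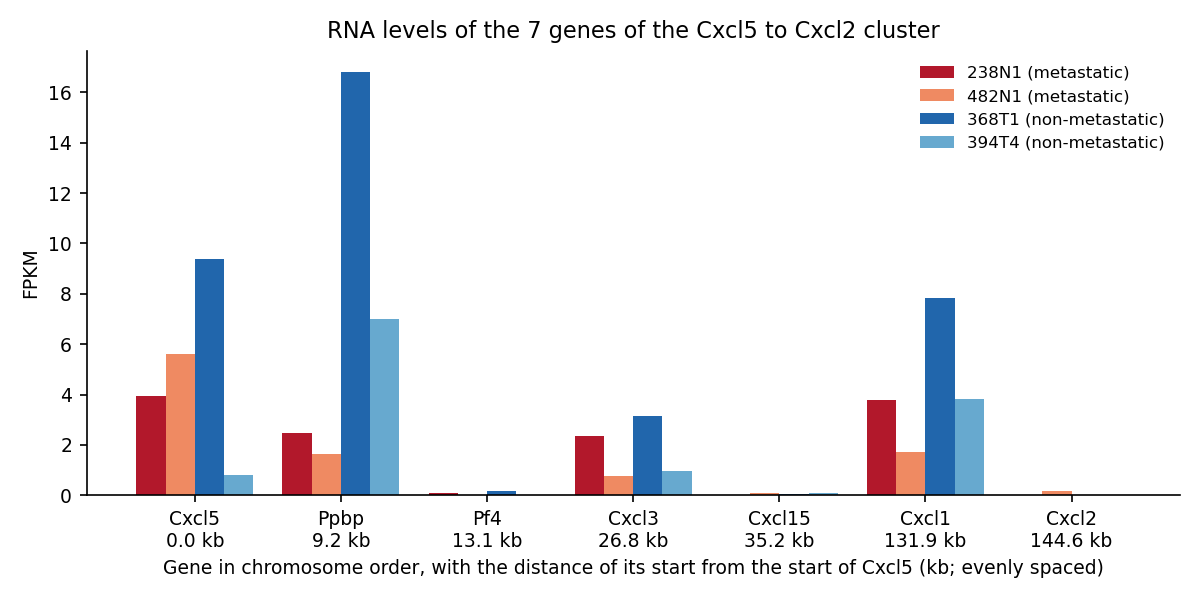
FPKM (vertical axis) of the 7 genes of the chromosome 5 cluster in chromosome order, with the distance of each start from the start of Cxcl5 in kb, and 1 bar for each line. Cxcl5, Ppbp, Cxcl3 and Cxcl1 are highest in 368T1, while Pf4, Cxcl15 and Cxcl2 stay near 0.

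Cxcl10 (ENSMUSG00000034855, mm9 chromosome 5, 92775664 to 92777915, minus strand) encodes an interferon-inducible ligand of Cxcr3 on activated T cells and natural killer cells. It stood at 1.36 FPKM in 238N1, 0 in 482N1, 1.96 FPKM in 368T1 and 2.32 FPKM in 394T4. The metastatic lines were the lower ones without overlap, at low levels throughout. The difference was -1.03 (SE 0.53, 95% interval -2.48 to 0.42; limma adjusted p = 0.394), and -0.41 without 482N1. Its neighbours Cxcl9 and Cxcl11, the other ligands of Cxcr3, were listed at 0 in every line. Cxcl10 lies within the span of Art3 on the opposite strand, which was also listed at 0 in every line.

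**Figure D4:**
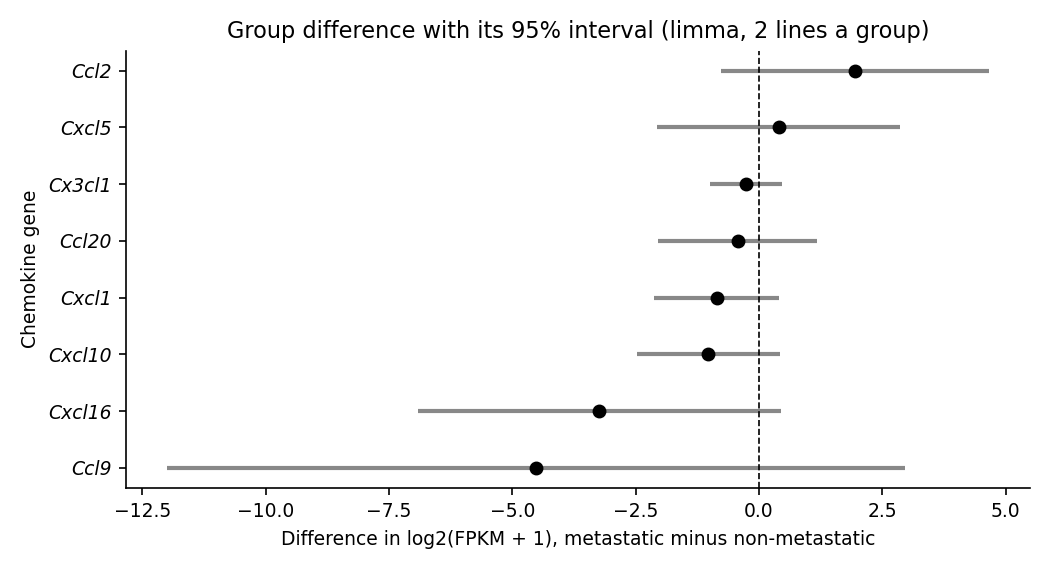
Metastatic minus non-metastatic mean of log2(FPKM + 1) (horizontal axis), for the 8 chemokine genes that entered the test; points are limma estimates and lines their 95% intervals. Every interval crosses 0, and that of Ccl9 is the widest, from -11.99 to 2.95.

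The counts over the chemokines were set beside those over all genes. In 4 of the 8 tested genes, Cxcl16, Ccl9, Cxcl1 and Cxcl10, the metastatic pair lay wholly below the non-metastatic pair, beside 26.9% of all genes tested; scaled by the protein-coding sum the count was 3, without Cxcl1. In 1 gene, Ccl2, they lay above, beside 28.3% of all genes tested. The level of FPKM + 1 spanned at least 4-fold over the lines in 4 of the 8, Cxcl16, Ccl9, Cxcl5 and Ccl2, beside 10.2% of all genes tested. That count was 2 without 482N1 or without 394T4, where 7 chemokines were tested. It was 7 with a pseudocount of 0.1 and 2 with a pseudocount of 5. The share over all genes was not counted at these settings. Ccl9 and Ccl2 had 1 line at least 4-fold above each of the other lines, beside 2.12% of all genes tested. This pattern was picked out after the values were seen, and both genes passed the filter through that line. The counts of pairs and of spans given before also hold these genes. Cxcl10 passed through the non-metastatic lines, at a mean of 2.14 FPKM against 0.679 FPKM in the metastatic lines. These counts are therefore a description and no support for a difference from all genes. Of the 8 tested genes, 6 had a negative and 2 a positive difference, beside 5787 negative and 6638 positive of the 12425 genes tested. Ccl20 and Cx3cl1, counted as negative, each turned positive with 1 library left out. The median difference of the 8 was -0.64, while the median of all genes tested was 0.045. Scaling each library by its protein-coding sum moved that median to 0.24, and Cx3cl1 then stood at -0.05, below the shifted median as before.

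Receptors of these chemokines were listed at or near 0. Of 24 receptor genes in the table, 23 stayed under 1 FPKM in every line and 13 were listed at 0 throughout. Ccr2, Ccr6, Cxcr1 and Cxcr2 were among those at 0, which may include failed estimates. Ccr1, the receptor of Ccl9, reached at most 0.0534 FPKM, Cxcr3 0.0456 FPKM, Cxcr6 0.120 FPKM and Cx3cr1 0.0200 FPKM. The exception was Cxcr7, now called Ackr3, an atypical receptor that takes up Cxcl12 and Cxcl11. It stood at 23.2 FPKM in 238N1, 39.6 FPKM in 482N1, 18.5 FPKM in 368T1 and 24.1 FPKM in 394T4, with overlapping groups (difference 0.50, SE 0.32; limma adjusted p = 0.454). Its ligand Cxcl12 was listed at 0 in both metastatic lines and stood at 3.37 FPKM in 368T1 and 1.60 FPKM in 394T4 (limma adjusted p = 0.335).

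Of the 30 other ligands, 18 were listed at 0 in every line and 8 reached 1 FPKM in at least 1 line. The 4 that entered the test were Ppbp, Cxcl3, Cxcl12 and Cxcl17. None passed limma's test over all genes, and Ppbp and Cxcl12 were lower at an unadjusted p under 0.05, beside 8.68% of all genes. Their median difference was -0.99. Cxcl17, a mucosal chemokine, stood at 2.61 FPKM in 238N1, 0.605 FPKM in 482N1, 0.115 FPKM in 368T1 and 0.764 FPKM in 394T4. Ccl17, which lies 28030 bp from Cx3cl1 and acts on T cells through Ccr4, had its highest value in 238N1 at 1.72 FPKM, with 1.10 FPKM in 394T4, 0.399 FPKM in 368T1 and 0.209 FPKM in 482N1.

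No gene of the upstream pathways passed the test over all genes. At an unadjusted p under 0.05, the share of all genes was 8.68% lower and 5.7% higher, and the counts given here for each list stand beside it. Of 20 tested NF-kB pathway and feedback genes none passed limma's test, 3 were lower and 0 higher at an unadjusted p under 0.05, and the median difference was -0.11. Rela, the main activating subunit, stood at 49.96 FPKM in 238N1, 54.1 FPKM in 482N1, 61.4 FPKM in 368T1 and 70.5 FPKM in 394T4. Nfkb2, the subunit of the non-canonical arm, stood at 32.4 FPKM in each metastatic line, 52.5 FPKM in 368T1 and 55.9 FPKM in 394T4 (difference -0.73, SE 0.15; limma adjusted p = 0.328). The feedback inhibitor Tnfaip3 overlapped between the groups, with 22.7 FPKM in 238N1, 21.9 FPKM in 482N1, 18.8 FPKM in 368T1 and 27.2 FPKM in 394T4. Of 25 interferon response genes in the table, 11 were tested. None passed, 1 was higher and 0 lower at an unadjusted p under 0.05, and the median difference was 0.014. Of the 25, 5 were listed at 0 in every line, which may include failed estimates. Irf7, Rsad2 and Mx1, genes that interferon raises strongly, were among these. In contrast, 14 of the 25 reached 1 FPKM in some line. Bst2 stood between 7.70 and 13.1 FPKM and Ifit2 between 1.37 and 4.31 FPKM. Irf1 stood at 23.8 FPKM in 238N1, 19.2 FPKM in 482N1, 16.6 FPKM in 368T1 and 26.9 FPKM in 394T4.

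Of the list of inducing cytokines and their receptors, several cytokines known to switch on chemokines were at or near 0. The colony-stimulating factors Csf1 and Csf2, and Lif, were not. Csf3, another colony-stimulating factor, was near 0 in 238N1, listed at 0 in 482N1 and higher in both non-metastatic lines. Il1b, Il17a, Ifng and Ifnb1 were listed at 0 in every line and Tnf reached at most 0.0511 FPKM. Lif stood at 5.61 FPKM in 238N1, 3.71 FPKM in 482N1, 15.7 FPKM in 368T1 and 21.1 FPKM in 394T4 (limma adjusted p = 0.287). Their receptors were measured too, and Tnfrsf1a, a receptor of Tnf, stood at 45.6 FPKM in 238N1, 36.7 FPKM in 482N1, 47.5 FPKM in 368T1 and 54.9 FPKM in 394T4. Of 18 tested inducers and receptors none passed limma's test, 2 were lower and 0 higher at an unadjusted p under 0.05, beside 8.68% and 5.7% of all genes, and the median difference was -0.26.

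Membrane-anchored Cx3cl1 and Cxcl16 are released by the proteases Adam10 and Adam17. Adam10 stood at 34.5 FPKM in 238N1, 42.3 FPKM in 482N1, 12.8 FPKM in 368T1 and 21.7 FPKM in 394T4. Both metastatic lines lay above both non-metastatic lines (difference 1.15, SE 0.31, limma adjusted p = 0.335). Adam17 stood at 7.18 FPKM in 238N1, 9.84 FPKM in 482N1, 5.97 FPKM in 368T1 and 6.48 FPKM in 394T4. Its metastatic lines also lay above (difference 0.38, SE 0.24, limma adjusted p = 0.448). Rhbdf2, a partner that Adam17 needs to mature, stood at 5.11 FPKM in 238N1, 4.95 FPKM in 482N1, 9.61 FPKM in 368T1 and 10.7 FPKM in 394T4 (difference -0.89, SE 0.20; limma adjusted p = 0.330). Timp3, an inhibitor of both proteases, was listed at 0 in 482N1, which may be a failed estimate. It stood at 22.5 to 26.5 FPKM in the other lines. None of the 5 tested genes of this list passed over all genes, while 2 were lower and 1 higher at an unadjusted p under 0.05, beside 8.68% and 5.7% of all genes.

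**Figure D5:**
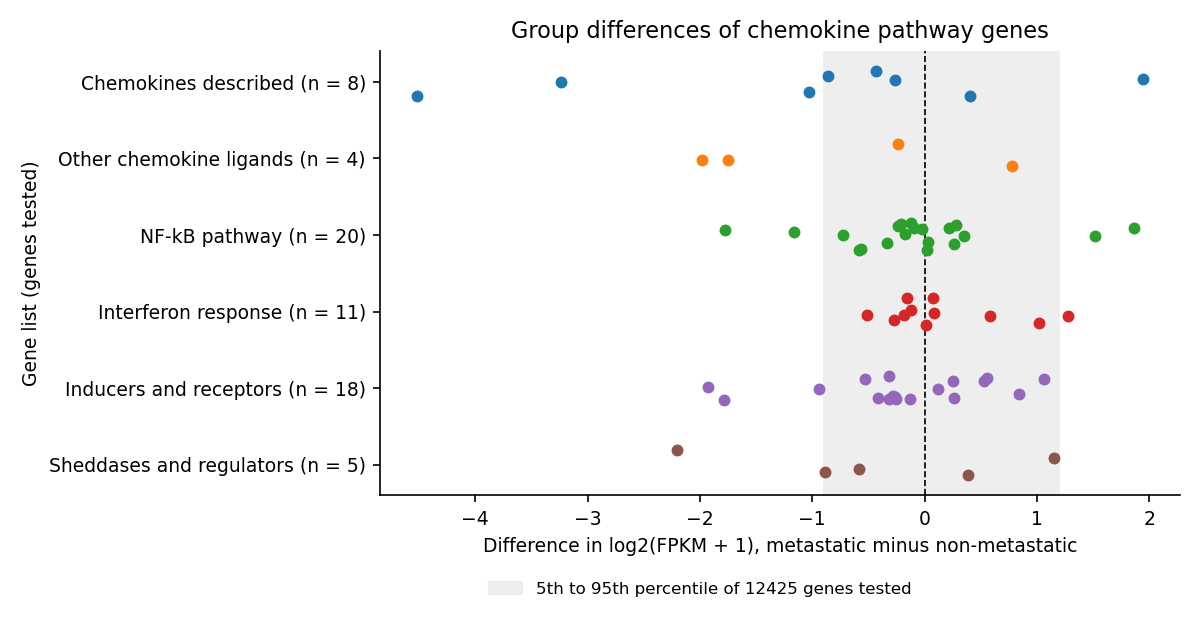
Metastatic minus non-metastatic mean of log2(FPKM + 1) (horizontal axis), for the tested genes of each list, 1 point a gene, with the band from the 5th to the 95th percentile of the 12425 genes tested in grey. Most NF-kB and interferon genes lie inside the band, while Ccl9, Cxcl16 and Cxcl10 lie below it and Ccl2 above it.

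Promoter sequences are shown for 4 of the genes: Cxcl1 and Cxcl2, which share motif letters at different RNA levels, Cxcl10, which holds all the motifs searched, and Ccl9, which differed most between lines. RefSeq promoters on GRCm38.p6 were found for 7 of the 10 genes; Ccl2, Cxcl5 and Cxcl16 had no entry. The 250 bases before each start were searched on both strands for the kB consensus, the interferon-stimulated response element (GAAA, any 2 bases, GAAA) and the AP-1 motif TGANTCA. Capitals mark matches, read 5′ to 3′ on the strand of the gene.
Cxcl1, chr5:90890995-90891244, plus strand: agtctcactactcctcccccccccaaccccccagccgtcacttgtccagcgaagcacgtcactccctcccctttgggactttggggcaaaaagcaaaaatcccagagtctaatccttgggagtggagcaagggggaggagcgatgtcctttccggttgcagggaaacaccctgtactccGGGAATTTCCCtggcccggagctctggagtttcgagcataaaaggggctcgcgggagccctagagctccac
Cxcl2, chr5:90903649-90903898, plus strand: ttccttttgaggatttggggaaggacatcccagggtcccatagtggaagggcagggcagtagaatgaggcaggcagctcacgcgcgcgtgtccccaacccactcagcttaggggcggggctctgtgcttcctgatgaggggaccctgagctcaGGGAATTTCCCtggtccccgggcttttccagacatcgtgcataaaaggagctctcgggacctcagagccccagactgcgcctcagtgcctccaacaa
Cxcl10, chr5:92348890-92349139, minus strand: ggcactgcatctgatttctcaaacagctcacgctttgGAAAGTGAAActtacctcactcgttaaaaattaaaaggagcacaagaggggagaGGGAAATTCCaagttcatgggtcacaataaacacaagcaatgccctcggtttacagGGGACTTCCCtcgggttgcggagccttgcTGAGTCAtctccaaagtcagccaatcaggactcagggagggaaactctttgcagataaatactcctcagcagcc
Ccl9, chr11:83578637-83578886, minus strand: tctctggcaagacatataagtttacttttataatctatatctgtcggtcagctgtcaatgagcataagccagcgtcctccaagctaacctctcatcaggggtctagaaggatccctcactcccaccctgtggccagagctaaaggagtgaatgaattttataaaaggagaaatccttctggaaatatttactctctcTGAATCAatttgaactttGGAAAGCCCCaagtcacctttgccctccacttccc

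Cxcl1 and Cxcl2 carry the same overlapping pair of kB matches, which begin 71 and 97 bases before the start. Cxcl1 RNA stood between 1.73 and 7.82 FPKM and Cxcl2 RNA at most at 0.168 FPKM, where the split of reads between Cxcl2 and Cxcl3 is uncertain. The part of the motifs in these levels was not tested. Cxcl10 carries kB matches 159 and 103 bases before its start, an interferon-stimulated response element at 213 bases and an AP-1 match at 74 bases. Ccl9 carries a kB match at 35 bases and an AP-1 match at 53 bases, and Ccl20 a kB match at 80 bases. In all, 5 of the 7 promoters held a kB match, beside 3.9% of the 32851 promoters of the same length; 2.98% held the interferon-stimulated response element and 6.75% the AP-1 motif. No match to the 3 motifs was found in the windows of Cxcl15, which was near 0 in every line, and Cx3cl1, which was abundant in every line. A match is a stretch of letters and was not tested for binding.

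For the 4 chemokines that reached 10 FPKM in any line, the genes with the nearest profile were found by the root mean square difference of mean-centred log2(FPKM + 1) over the 4 lines. For Cx3cl1 they were Ifngr2 (0.035), Pnp2 (0.038) and Antxr1 (0.054), all with their highest value in 394T4 and their lowest in 482N1. For Ccl2 they were Il11 (0.16), Sned1 (0.19) and Glp1r (0.23), which stood at 10.5, 10.6 and 16.9 FPKM in 482N1. For Cxcl16 they were Abhd11 (0.21), Gnl1 (0.35) and Fyb (0.37), each listed at 0 in 482N1. No gene came as close to Ccl9. The nearest were Snord14e (0.70), Mvp (1.17) and Dlgap4 (1.52), each listed at 0 in the 3 lines other than 394T4. Values listed at 0 may include failed estimates, so the matches to Cxcl16 and Ccl9 are not read as shared expression.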

How the data were processed

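RNA of 4 cultured mouse lung cancer lines, 2 metastatic and 2 non-metastatic, was sequenced once per line from Illumina TruSeq libraries, per the series design text and the labels' protocols. The deposited values are FPKM computed by the authors, per the file headers. The submitters' processing notes name TopHat, without a version, and mm9 as the build. What computed the FPKM, and from which annotation, is not given in the sources used here. Part of the tumour genotype is not reported here.

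Of rows with the same symbol, that of the highest mean was kept, which left 34147 of 37527 rows. Positions came from GENCODE vM1 on NCBIM37 (mm9), which held 99.0% of the row IDs. The test was limma 3.58.1 (R 4.3.3) with a variance trend on log2(FPKM + 1), pseudocount 1, for genes averaging 1 FPKM or more, all 4 libraries, two-sided, Benjamini-Hochberg adjusted p under 0.05. This scale understates the change of low genes. No counts were recovered, so no counting intervals are given. Relative depth is the commonest ratio of values in rows with a mean under 0.08 FPKM, shared within 1% by 125 to 161 of 761 to 952 rows. On simulated data with 200 of 12425 genes changed by 2 on the log2 scale, limma called 200 of them and 4 unchanged genes. Every simulated gene had the same spread, the median within the groups. The simulation therefore cannot show how often a change is found in genes with a wider spread, such as Cxcl16 (SE 1.36) or Ccl9 (SE 2.75).

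The members, the gene lists, the tests and the alternatives were chosen with earlier results of these data known. Named genes are the 10 members, their receptors and chemokine neighbours within 250 kb, list members past the test or among the 5 with the highest mean, and the 3 nearest profiles, leaving out clone and model names; a few further pathway genes were named after their values were seen. Coding sequences were aligned with Biopython 1.88. Protein features were not analysed here. Alternatives were other pseudocounts (0.1 and 5), no filter or a mean of at least 5 FPKM, 3 other scalings, no variance trend, genes listed at 0 left out, and each library left out in turn.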

Additional observations from a re-analysis of the deposited data

How the results depend on the processing

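No alternative called any of the tested chemokines: the lowest adjusted p of 90 values was 0.0994, for Cxcl16 without 238N1, and 87 values kept their direction. The exceptions were Ccl20 without 482N1 (0.27; range with 1 library left out -0.56 to 0.27), Cx3cl1 without 394T4 (0.031; range -0.56 to 0.031) and Cxcl5 without 394T4 (-0.86; range -0.86 to 1.66). Over all genes, 20 were called; no filter gave 2, a mean of at least 5 FPKM 10, limma without the trend 44, and leaving out genes listed at 0 gave 6. With any 1 library left out the count was 0, with 3 libraries in the fit. An unadjusted p under 0.05 was reached by 1079 genes in the lower and 708 in the higher direction, but by 468 and 1500 after scaling to the protein-coding sum. The share of all genes spanning 4-fold was counted at the main setting only. Chemokines spanning 4-fold numbered 7 with a pseudocount of 0.1. They numbered 2 with a pseudocount of 5, a mean of at least 5 FPKM or without genes listed at 0. With 1 library left out they numbered 2 to 4. Those with both metastatic lines below fell from 4 to 2 at a mean of at least 5 FPKM and without genes listed at 0, where fewer chemokines were tested (3 and 4), and to 3 after scaling to the protein-coding sum. The 1 gene with both above, Ccl2, was not among those tested there (0 genes), and with quantile normalization there was also 0; the cause was not tested. No paired analysis was possible because the labels give the lines no shared replicate numbers. With 1 library a line, values near 0 cannot be ordered.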

Other observations

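Growth factors for myeloid cells, which often act beside chemokines, also differed between lines. Csf1, the macrophage colony-stimulating factor, stood at 4.57 FPKM in 238N1, 31.2 FPKM in 482N1, 15.3 FPKM in 368T1 and 16.0 FPKM in 394T4, with the metastatic lines at both ends (limma adjusted p = 0.859). Csf2, which acts on granulocytes and macrophages, stood at 2.31, 4.31, 4.97 and 9.79 FPKM in the same order, with both metastatic lines below (limma adjusted p = 0.376). Il1rn, the receptor antagonist of interleukin 1, was highest in 238N1 at 21.8 FPKM and lowest in 482N1 at 4.94 FPKM, with 13.1 and 12.7 FPKM in 368T1 and 394T4.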
